A study of Sus scrofa with 2 samples.

Results

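The collagen genes were examined in single nuclei of the olfactory mucosa of newborn piglets (Sus scrofa). Of 25880 rows in the deposited count tables, 33 carried a collagen symbol (COL, a number, A, a number), and the 30 with at least 20 unique molecular identifiers (UMIs, each standing for 1 captured transcript) summed over both tables were taken as members. The material was 1 library from a piglet with a CFTR knockout and 1 library from a wild type piglet, both newborn; the olfactory neuroepithelium was dissected, frozen and sectioned, and nuclei were released from the sections. CFTR encodes an anion channel of epithelia, and people without it have cystic fibrosis. With 1 library per genotype no difference could be tested: each value stands for 1 animal, the comparisons are between these libraries, and the intervals given are 95% intervals for counting error only.

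Collagens are secreted or membrane proteins built from chains that wind into a triple helix. Fibril-forming collagens give connective tissue its tensile strength, fibril-associated collagens coat those fibrils, network collagens form the sheet of basement membranes under epithelia and around vessels, and transmembrane collagens anchor cells to the matrix. In the olfactory mucosa the lamina propria under the sensory epithelium holds fibroblasts, glands, vessels and olfactory nerve bundles, and cartilage and bone lie beneath it.

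Filtering left 5761 knockout and 4536 wild type nuclei, at median depths of 2093 and 2966 UMIs. Levels are in CPM, the UMIs of a gene scaled to a common total of all UMIs in the class. CFTR itself stood at 12.7 CPM in the knockout library, against 88.9 CPM in the wild type library. Nuclei were clustered without the collagen genes, so that none of the collagen values below shaped the classes. Classes are called X-like from marker genes. Fibroblast-like nuclei had 180 UMIs of PDGFRA and 890 of DCN in the knockout library, against 193 and 921 in the wild type library. Clusters 1 and 4 were shallow, with medians of 535 and 743 UMIs, and stayed unnamed; cluster 1 held 973 knockout and 23 wild type nuclei, cluster 4 held 17 and 200. Cluster 2 also stayed unnamed: HPSE2, IBSP, FAT4 and ABI3BP were among its leading genes, it had 2 bone markers (RUNX2 and IBSP) and 2 fibroblast markers, and 159 knockout and 293 wild type nuclei lay in it. Cluster 14, with 453 knockout and 150 wild type nuclei, combined 5 markers of basal cells (TP63, KRT5, KRT14, DLK2 and TRIM29) with 5 of secretory cells. Between the libraries 8 cell barcodes were shared.

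The members covered 8 structural families. Of these, 10 were fibrillar (COL1A1, COL1A2, COL2A1, COL3A1, COL5A1, COL5A2, COL5A3, COL11A1, COL11A2 and COL27A1) and 4 fibril-associated (COL12A1, COL14A1, COL16A1 and COL22A1). A further 5 belonged to the beaded-filament collagens or their relatives (COL6A2, COL6A3, COL6A6, COL26A1 and COL28A1), and 2 to the short-chain network type (COL8A1 and COL8A2). The basement membrane type IV was represented by COL4A2, COL4A4 and COL4A5, the anchoring fibrils that tie epithelium to the stroma below by COL7A1, the multiplexins by COL15A1 and COL18A1, and the transmembrane type by COL13A1, COL17A1 and COL23A1. COL6A6 was the member with the fewest UMIs, 89, and COL6A5 and COL10A1 fell just outside the minimum with 19 and 17. Another 8 rows that carry only an Ensembl identifier were matched to collagen names by a gene name table and are described apart from the members. COL4A1 was not analysed here. In the RefSeq pig annotation (Sscrofa11.1) COL4A2 overlaps COL4A1, and COL4A4 overlaps COL4A3. No source used here says whether counting used strand, which leaves the values of COL4A2 and COL4A4 uncertain.

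Summed over the 30 members, collagen levels were highest in the unnamed cluster 2, with 11501 CPM in the knockout library and 16320 CPM in the wild type library. Cartilage-like nuclei had 6653 and 7403 CPM, from 56 and 4 nuclei, and fibroblast-like nuclei 5124 and 7078 CPM. Mature olfactory neuron-like nuclei, which should lack fibrillar collagen, had 545 CPM in the knockout library and 304 CPM in the wild type library. That level, which sums all 30 members and not the fibrillar ones alone, was taken as the background of these libraries. It was higher in the knockout library, but not for every member. Of 16 members with at least 20 UMIs there, 12 were higher and 4 lower, among them COL5A2 (28.2 and 42.8 CPM). COL17A1, with 67.5 and 49.1 CPM, and COL14A1, with 44.4 and 40.7 CPM, are not fibrillar. Each library had 15 members whose highest class was either the fibroblast-like class or cluster 2. The highest class, among those with at least 30 nuclei in a library, was the same in both libraries for 20 of the 30 members: cluster 2 for 8, fibroblast-like nuclei for 4, endothelial-like nuclei for 3, glia-like nuclei for 3 and cluster 14 for 2. For COL1A1, COL1A2, COL5A3 and COL12A1 that class was above the next beyond counting error in both libraries. For COL4A2, COL4A5, COL6A3, COL7A1, COL14A1, COL22A1 and COL26A1 it was so in neither. Some of these agreements rested on few counts. The 28 wild type UMIs of COL22A1 in cluster 2 came from 3 nuclei, 19 of them from 1. COL6A6 had 4 knockout UMIs in fibroblast-like nuclei.

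**Figure D1:**
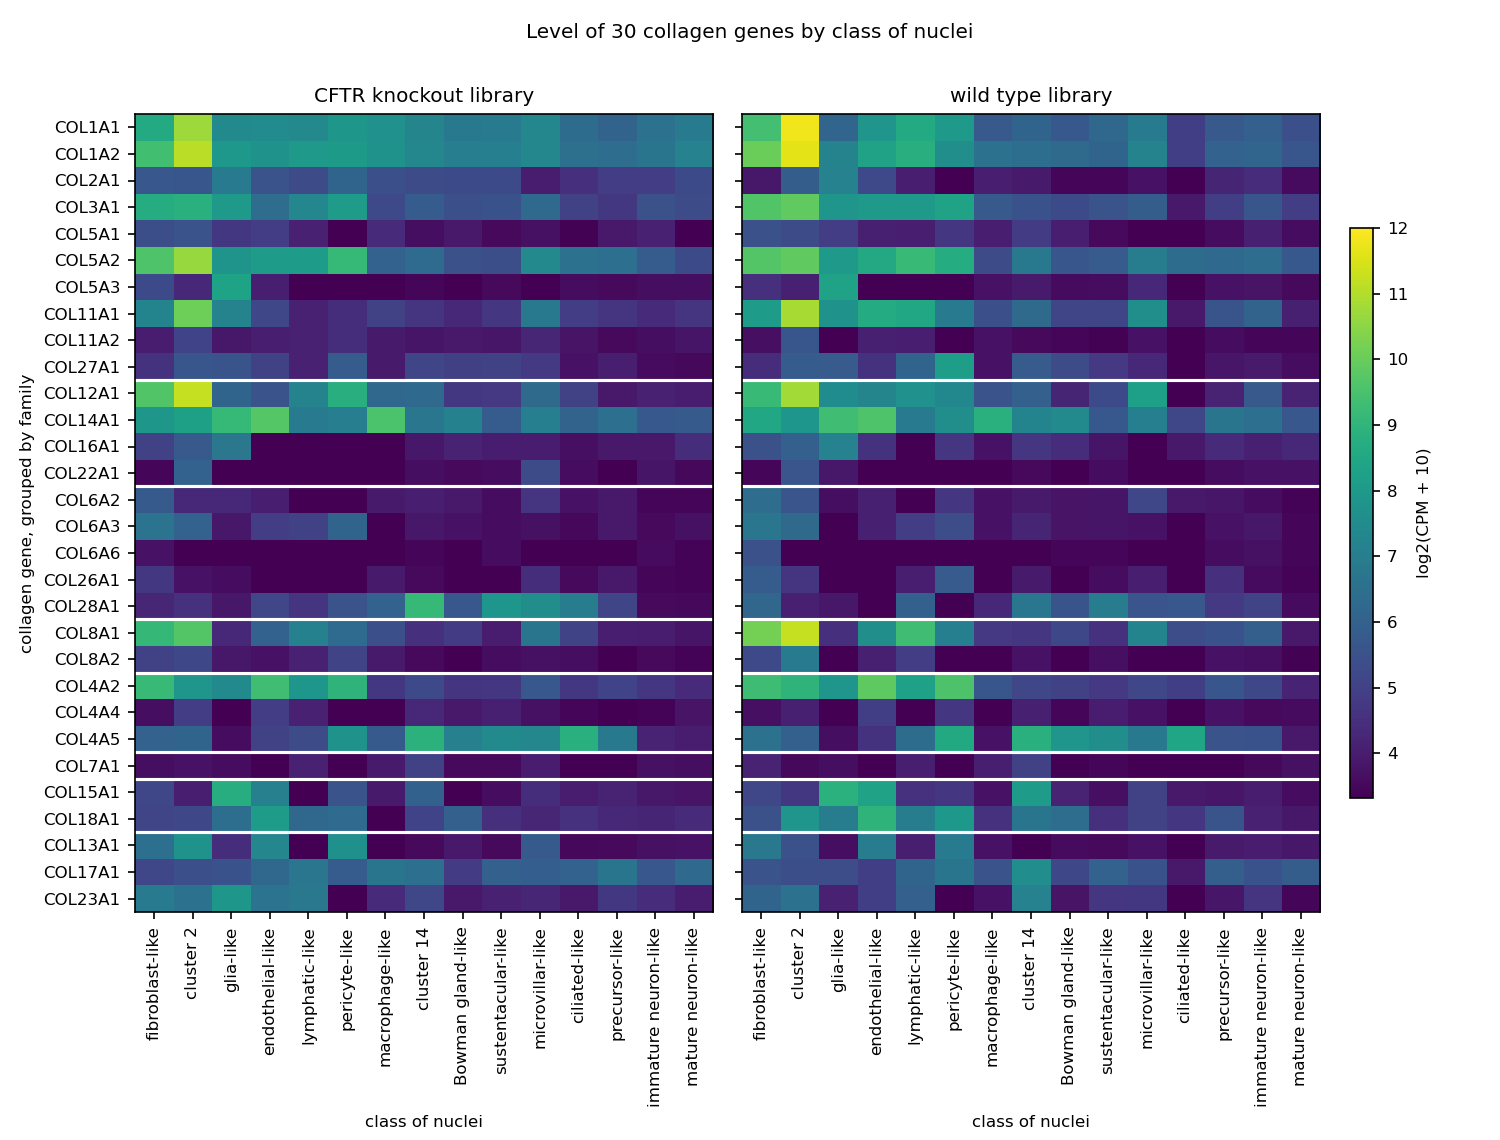
Level of the 30 collagen genes (rows, grouped by family) in 15 classes of nuclei (columns) in the knockout library (left) and the wild type library (right), as log2(CPM + 10). Fibrillar COL1A1, COL1A2 and COL5A2 with COL12A1 are brightest in cluster 2 and fibroblast-like nuclei, COL5A3 and COL15A1 in glia-like nuclei and COL4A5 in cluster 14.

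The share of collagen UMIs in fibroblast-like nuclei and cluster 2 differed between the libraries. Together they held 36.9% (36.3% to 37.5%) of the 26188 member UMIs in the knockout library, against 60.3% (59.7% to 60.8%) of the 32530 in the wild type library. The gap lay in cluster 2. It held 13.2% in the knockout library and 36.6% in the wild type library, while fibroblast-like nuclei held 23.8% and 23.7%. Cluster 2 also made up 2.76% of the knockout nuclei against 6.46% of the wild type nuclei. More of the knockout library's collagen UMIs lay in the shallow cluster 1 (7.45% against 0.249%), in respiratory ciliated-like nuclei (9.85% against 0.366%) and in cluster 14 (9.18% against 3.41%), which were all larger there. The mix of cell types in the dissected piece and these shares cannot be told apart. Over all nuclei the members summed to 1731 CPM (1710.5 to 1752.5) in the knockout library and 1899 CPM (1879 to 1920) in the wild type library.

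**Figure D2:**
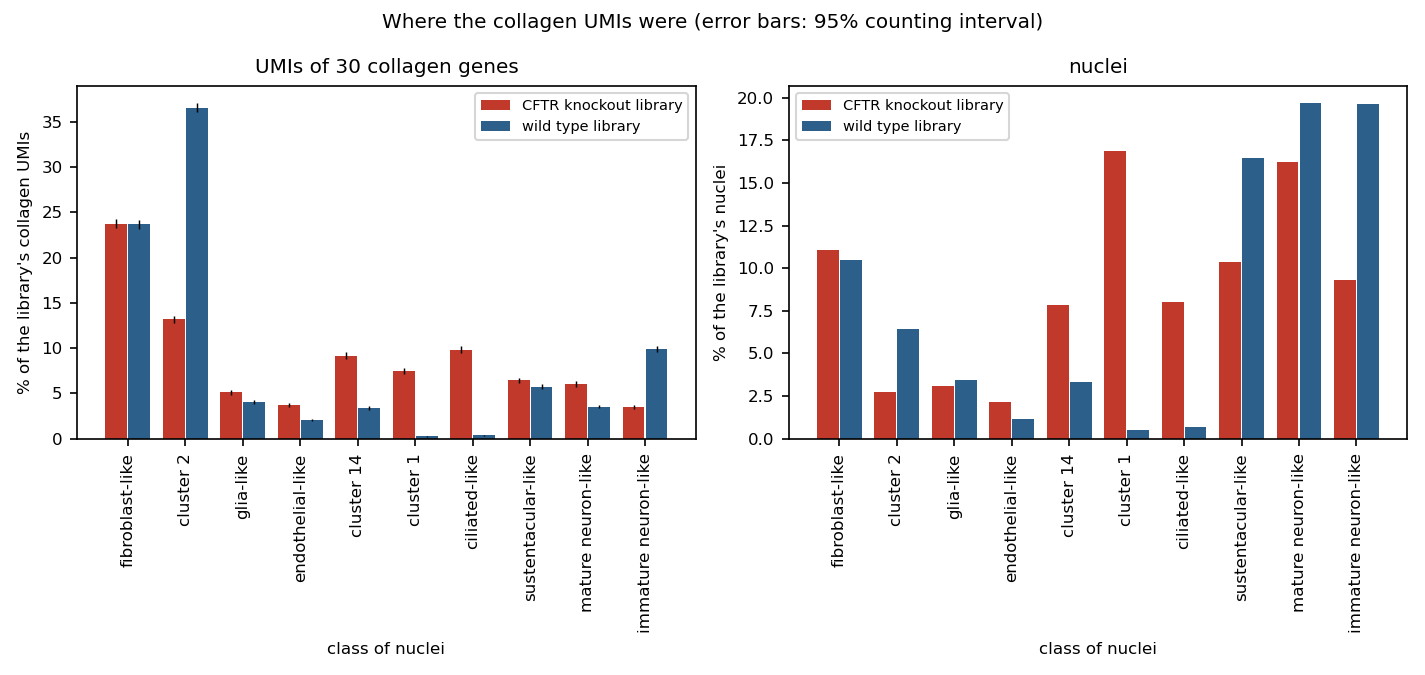
Share of each library's collagen UMIs (left panel, % with 95% counting intervals) and of its nuclei (right panel, %) by class, knockout bars left of wild type bars. Cluster 2 holds 13.2% of the knockout collagen UMIs against 36.6% of the wild type ones, and the fibroblast-like share is 23.8% against 23.7%.

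Over all nuclei, 11 members were higher and 19 lower in the knockout library. Past a log2 ratio of 1 in either direction were 3 higher members, where 6.86% of 16106 genes were that much higher, and 3 lower members, where 3.02% were that much lower. COL2A1, the main chain of cartilage fibrils, had 38.8 CPM in the knockout library and 11.6 CPM in the wild type library, which gives a log2 ratio of 1.75 (1.51 to 1.99). COL28A1, a beaded-filament relative, had 100.03 CPM in the knockout library against 36.2 CPM in the wild type library (log2 ratio 1.47, 1.33 to 1.60). COL11A2 had 6.61 and 3.04 CPM (1.12, 0.63 to 1.64). All of these were higher in the knockout library. At the other end, COL8A1, a chain of the hexagonal networks under endothelia and in the cornea, had 78.3 CPM in the knockout library against 208 CPM in the wild type library, giving a log2 ratio of -1.41 (-1.51 to -1.32). COL6A6 had 15 UMIs in the knockout library and 61 in the wild type library (log2 ratio -1.84, -2.77 to -1.01). Of the 61 wild type COL6A6 UMIs, 37 lay in cluster 22, a small fibroblast-like cluster, and 15 in cluster 20, an immature neuron-like one. In the knockout library these clusters held 2 UMIs and 1 UMI of it. COL26A1 had 41 and 100 UMIs (-1.11, -1.67 to -0.57). The median member stood at a log2 ratio of -0.10, against 0.10 for all genes, of which 40.1% were lower.

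Directions over all nuclei were also counted by family, beside 40.1% of all genes lower. Most families had few members, so a shared direction within one is not a result about that family. All 4 fibril-associated members were lower in the knockout library, but COL12A1, COL14A1 and COL22A1 changed sign under at least 1 other weighting or filter. Both short-chain members and both multiplexins were lower and all 3 transmembrane members higher under every alternative run, and the fibrillar members split into 4 higher and 6 lower. Classes weigh into these values by their size. COL4A5 had 152 CPM in the knockout library and 83.3 CPM in the wild type library (log2 ratio 0.87, 0.77 to 0.96), but its log2 ratio was -0.06 when every class counted equally. COL1A1 and COL1A2, which pair in type I collagen, had log2 ratios of -0.38 and -0.10, and these became 0.05 and 0.33 when every nucleus counted equally. A single wild type nucleus of cluster 2 carried 780 UMIs of COL1A1 and a single one 564 of COL1A2. Without the top nucleus of each library the log2 ratios were -0.16 for COL1A1 and 0.05 for COL1A2.

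**Figure D3:**
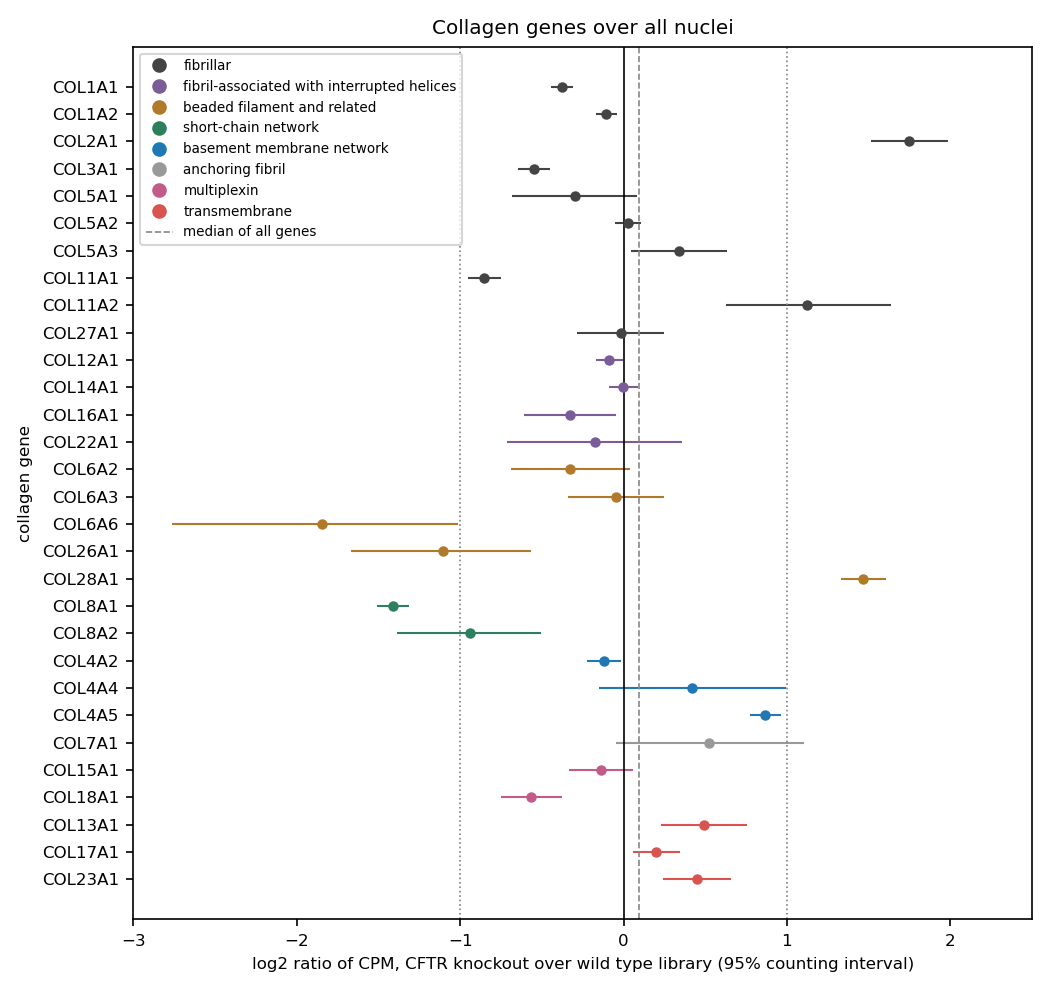
Log2 ratio of CPM, knockout over wild type library, of the 30 collagen genes over all nuclei (points) with 95% counting intervals (lines), coloured by family; dotted lines mark -1 and 1 and the dashed line the median of all genes at 0.10. COL2A1, COL28A1 and COL11A2 lie right of 1 and COL6A6, COL8A1 and COL26A1 left of -1.

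Within the 638 knockout and 475 wild type fibroblast-like nuclei, most measured collagens were lower in the knockout library. Of 26 members with at least 20 UMIs there, 6 were higher and 20 lower, with a median log2 ratio of -0.45 against 0.08 for all genes, of which 43.9% were lower. Past the log2 ratio of 1 were 2 higher members (7.36% of genes) and 4 lower members (4.46% of genes). Depth differed in the same direction, with a median of 1669 UMIs per nucleus in the knockout library and 2071 in the wild type library, and so did the summed level of 9 fibroblast markers (1 of them at 0 in each library), 2503 against 3314 CPM; the part of both in the result was not tested.

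Over the whole class, the structural fibril genes COL1A1, COL1A2 and COL3A1 were all lower in knockout fibroblast-like nuclei. For COL1A1 and COL3A1 this did not hold in every part of the class at a finer clustering, as given below. COL1A1 had 388 CPM in the knockout library against 670 CPM in the wild type library (log2 ratio -0.79, -0.96 to -0.62). COL1A2 stood at 652 against 1053.5 CPM (-0.69, -0.83 to -0.56), and COL3A1, the type III chain of elastic tissues, at 402 against 799 CPM (-0.99, -1.15 to -0.83). COL5A2, which nucleates type I fibrils, differed less, with 769 CPM in the knockout and 809 CPM in the wild type library, and its interval of -0.21 to 0.06 spans 0. Among the other fibrillar genes COL11A1 had 142 CPM in the knockout library and 263 CPM in the wild type library.

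COL8A1 was the abundant gene that differed most. It reached 535 CPM (494 to 577) in knockout fibroblast-like nuclei and 1146 CPM (1083 to 1211) in wild type ones, a log2 ratio of -1.10 (-1.24 to -0.96). After every nucleus was thinned to 1000 UMIs, a COL8A1 UMI was found in 30.2% (26.2% to 34.3%) of 517 knockout nuclei and 46.0% (41.3% to 50.9%) of 430 wild type nuclei. Unthinned, the shares were 40.1% and 58.7%. At a finer clustering the fibroblast-like nuclei split by library, with one cluster of 402 knockout and 70 wild type nuclei and another of 9 and 284. In the first of these COL8A1 still had 573 CPM in the knockout and 1293 CPM in the wild type library, giving a log2 ratio of -1.17 (-1.40 to -0.94), whereas COL1A1 had 395 and 329 CPM (0.26, -0.14 to 0.69) and COL3A1 396 and 307 CPM (0.37, -0.05 to 0.81). The second, with 7 knockout UMIs of COL8A1, had 481 CPM in the knockout library and 1216 CPM in the wild type library (-1.34, -2.66 to -0.29). COL1A1 and COL3A1 had 3 and 6 knockout UMIs in it, with log2 ratios of -1.70 (-3.98 to -0.15) and -0.91 (-2.37 to 0.22). In another cluster, of 207 knockout and 54 wild type nuclei, COL8A1 had 397 and 772 CPM (-0.96, -1.41 to -0.50). In the remaining cluster, of 23 knockout and 74 wild type nuclei, COL8A1 was not lower, with 908 and 789 CPM (0.20, -0.31 to 0.69). COL1A1 had 773 and 1282 CPM in it (-0.73, -1.26 to -0.24), and COL3A1 521 and 1578 CPM (-1.60, -2.23 to -1.02).

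The fibril-associated COL12A1 went the other way, with 788 CPM in knockout and 568 CPM in wild type fibroblast-like nuclei (log2 ratio 0.47, 0.32 to 0.62), while COL14A1, its close relative, had 231 and 348 CPM (-0.59, -0.82 to -0.37). COL12A1 was higher in the knockout library, and COL14A1 lower. COL6A2 and COL6A3, chains of the beaded filaments around cells, had 44.5 against 75.4 CPM and 88.2 against 95.6 CPM; only the COL6A2 interval, -1.28 to -0.25, lies below 0. COL23A1, a transmembrane collagen, had 107 CPM in the knockout library and 58.8 CPM in the wild type library, and COL5A3 had 35 and 14 UMIs. COL2A1 had 50 UMIs in the knockout library and 5 in the wild type library.

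A small fibroblast-like cluster, cluster 22, carried COL6A6 and COL28A1. It had APOD, ADGRD1 and MEOX2 as leading genes and held 3 knockout and 25 wild type nuclei. In its wild type nuclei COL28A1 stood at 993 CPM (62 UMIs) and COL6A6 at 593 CPM (37 UMIs), while COL8A1 had 336 CPM. The main fibroblast-like cluster had 9 UMIs of COL28A1 in 635 knockout nuclei and 6 in 450 wild type nuclei. The log2 ratios of -2.79 for COL28A1 and -3.41 for COL6A6 over all fibroblast-like nuclei therefore rested on the 25 wild type nuclei of cluster 22. Without cluster 22, 16 of 24 members were lower and the median log2 ratio was -0.28.

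**Figure D4:**
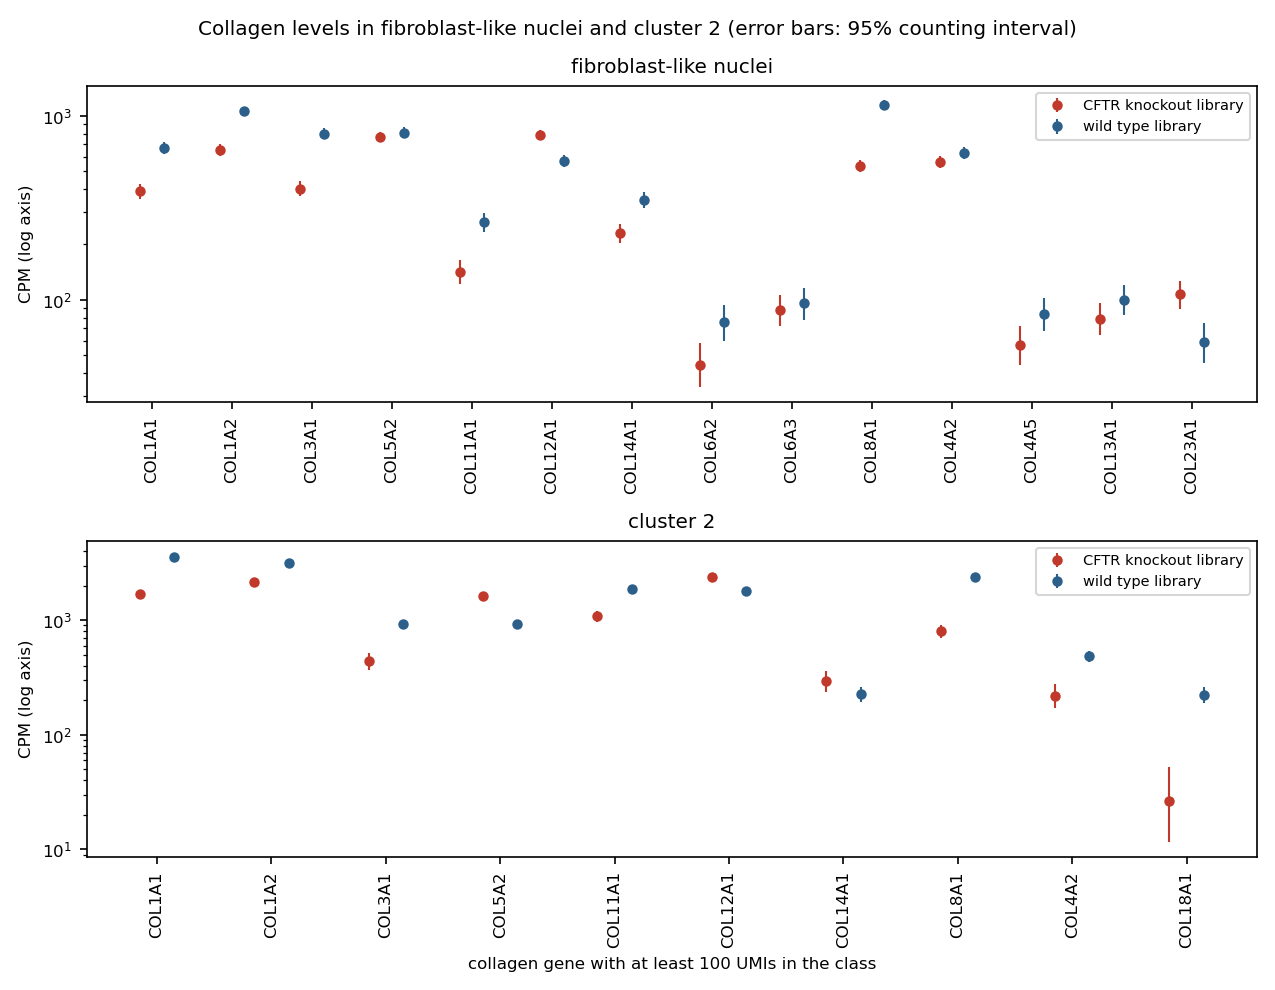
CPM (log axis) of collagen genes with at least 100 UMIs in fibroblast-like nuclei (top) and in cluster 2 (bottom), with 95% counting intervals; knockout points left of wild type points. COL8A1 is lower in the knockout library in both panels (535 against 1146 and 800 against 2389 CPM), and COL12A1 is higher in both (788 against 568 and 2394 against 1787 CPM), with the sign in cluster 2 changing under 2 other clusterings.

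Cluster 2 had the highest levels of the type I chains. COL1A1 had 504 UMIs in the knockout library, 1681 CPM, and 2595 UMIs in the wild type library, 3558.5 CPM, a log2 ratio of -1.08 (-1.22 to -0.94). COL1A2 had 2174 CPM in the knockout library against 3185.5 CPM in the wild type library (-0.55, -0.68 to -0.43). UMIs of COL1A1 per UMI of COL1A2 were 0.773 (0.687 to 0.870) in the knockout library and 1.12 (1.06 to 1.18) in the wild type library. These intervals of counting error do not overlap, but single wild type nuclei of this cluster held many UMIs of each gene, as given above. Without the top nucleus of each library the log2 ratios were -1.06 for COL1A1 and -0.39 for COL1A2. UMIs of one chain per UMI of the other were not recomputed without those nuclei. In fibroblast-like nuclei there were 0.595 and 0.636 UMIs of COL1A1 per UMI of COL1A2, with overlapping intervals.

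Of 23 members with at least 20 UMIs in cluster 2, 8 were higher and 15 lower in the knockout library, with a median log2 ratio of -0.30 against 0.06 for all genes. One was at least 1 log2 unit higher (6.31% of genes), and 7 were that much lower (7.19% of genes). COL8A1 had 800 CPM in the knockout library and 2389 CPM in the wild type library (-1.58, -1.78 to -1.38), and COL8A2, its partner chain, 26.7 and 106 CPM (-1.98, -3.25 to -0.93). COL18A1, the basement membrane multiplexin whose end fragment is endostatin, had 8 UMIs in the knockout library against 162 in the wild type library, which is 26.7 and 222 CPM (-3.06, -4.29 to -2.05). Also lower were COL3A1, with 440 and 931 CPM, and COL4A2, with 220 and 485 CPM. The log2 ratio of COL3A1 was -1.08 and that of COL4A2 -1.14, and with collagens among the clustering genes they were -0.63 and -0.74.

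Against that direction, COL12A1 had 2394 CPM in the knockout library and 1787 CPM in the wild type library (log2 ratio 0.42, 0.29 to 0.55), and COL5A2 had 1614 and 930 CPM (0.80, 0.62 to 0.97). The COL12A1 ratio changed sign with the clustering, to -0.10 at resolution 0.5 and -0.13 when each library was clustered on its own. COL13A1, a transmembrane collagen of cell-matrix junctions, had 61 UMIs in 159 knockout nuclei and 25 in 293 wild type nuclei, which is 203 and 34.3 CPM (2.57, 1.88 to 3.30); 19 of the 61 came from 1 nucleus, and without the top nucleus of each library the log2 ratio was 2.298. The bone markers also differed within this cluster: RUNX2, a regulator of bone formation, had 1594 CPM in the knockout library and 580 CPM in the wild type library, and IBSP, a bone matrix protein, 430 and 1238 CPM. The part of a different makeup of the cluster in the collagen values was not tested. The log2 ratio of COL1A1 in cluster 2 was -0.43 with collagens among the clustering genes and -0.26 in libraries clustered apart, while that of COL8A1 ranged from -1.77 to -1.06 over the clusterings.

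Cartilage-like nuclei numbered 56 in the knockout library and 4 in the wild type library, too few for a comparison. In the 56 knockout nuclei COL11A1, which co-assembles with type II fibrils, stood at 2874 CPM, COL2A1 at 535 CPM, COL27A1 at 395 CPM and COL11A2 at 132 CPM. COL2A1 was also found outside that class. It was higher in the knockout library in fibroblast-like nuclei (41.2 against 4.597 CPM), sustentacular-like nuclei (28.5 against 1.24 CPM) and mature neuron-like nuclei (28.9 against 1.84 CPM). It was not higher in glia-like nuclei, the highest wild type class, with 106 CPM in the knockout library and 132 CPM in the wild type library (log2 ratio -0.33, -0.93 to 0.27), nor in cluster 2, with 40.0 and 49.4 CPM (-0.30, -1.38 to 0.67). In mature neuron-like nuclei a COL2A1 UMI was found, after thinning, in 3.78% of 899 knockout nuclei and in none of 870 wild type nuclei (interval up to 0.423%), against 7.91% and 0.671% unthinned. These cells are not expected to express the gene, and the share was taken as background. The source of these UMIs was not tested, nor was their part in the COL2A1 ratio over all nuclei.

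Cluster 14, the basal and secretory epithelial cluster, was the highest class of COL4A5 and COL7A1 in both libraries. Neither was above the next class beyond counting error. COL28A1 was highest there in the knockout library, but in sustentacular-like nuclei in the wild type library. COL4A5, a basement membrane chain, did not differ beyond counting error, with 464 CPM in the knockout library and 450 CPM in the wild type library (log2 ratio 0.04, -0.17 to 0.26). COL7A1, the anchoring fibril chain that epithelia secrete, had 28 and 13 UMIs, 22.8 and 22.9 CPM. Of 18 members with at least 20 UMIs, 8 were higher and 10 lower in the knockout library. Past the log2 ratio of 1 were 3 higher members (10.5% of genes) and 5 lower members (7.57% of genes).

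COL28A1 was the collagen that stood out in cluster 14. It had 557 CPM (683 UMIs) in the knockout library and 96.7 CPM (55 UMIs) in the wild type library, giving a log2 ratio of 2.53 (2.13 to 2.95). After thinning, 34.4% (29.9% to 39.2%) of 424 knockout nuclei and 8.28% (4.35% to 14.01%) of 145 wild type nuclei had a COL28A1 UMI, against 50.6% and 16.7% unthinned. In mature neuron-like nuclei the thinned share was 0 of 899 in the knockout library and 0.345% in the wild type library, where nuclei had medians of 2848.5 and 3796.5 UMIs (2167 and 2786 in cluster 14). The makeup of cluster 14 differed as well. The summed level of 6 secretory markers was 3619 CPM in the knockout library and 777 CPM in the wild type library, and that of 7 basal markers 855 and 2588 CPM. At a finer clustering it split into a secretory part with COL28A1 among its leading genes (236 knockout and 22 wild type nuclei) and TP63 parts. Within the secretory part COL28A1 had 704 CPM in the knockout library and 456 CPM in the wild type library, giving a log2 ratio of 0.63 (0.18 to 1.11). When each library was clustered on its own, the log2 ratio over the nuclei matched to cluster 14 (471 knockout and 114 wild type) was 4.82. In the TP63 part of 201 knockout and 28 wild type nuclei it had 338 and 74.5 CPM (2.18, 0.92 to 3.83, 127 against 5 UMIs). COL28A1 was higher in the knockout library in both of these parts, by less in the secretory part. For the other TP63 part, of 38 knockout and 105 wild type nuclei, no COL28A1 ratio is given.

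Several collagens were lower in the knockout nuclei of cluster 14. COL17A1, the hemidesmosome collagen that fastens basal cells to the basement membrane, had 79.1 CPM in the knockout library and 183 CPM in the wild type library (log2 ratio -1.21, -1.62 to -0.79) over cluster 14. COL15A1 had 55.5 and 260 CPM (-2.23, -2.67 to -1.81), and COL23A1 26.1 and 135 CPM (-2.37, -3.02 to -1.76). Also lower were COL11A1, with 15.5 and 70.3 CPM, and COL18A1, with 23.7 and 93.2 CPM. In the TP63 part that also had NRCAM and CYP24A1 (38 knockout and 105 wild type nuclei) COL23A1 had 166 CPM in the knockout library and 165 CPM in the wild type library, and COL17A1 166 and 196 CPM, with intervals that span 0. The other TP63 part still had less COL15A1 in the knockout library, with 130 and 447 CPM (-1.78, -2.46 to -1.07), and less COL17A1, with 85.1 and 224 CPM (-1.39, -2.32 to -0.40).

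Collagens were also measured in the other epithelial classes. Sustentacular-like nuclei, the support cells of the olfactory epithelium, had 18 members with at least 20 UMIs, of which 8 were higher and 10 lower in the knockout library. Past the log2 ratio of 1 were 2 higher (4.92% of genes) and 2 lower (3.72% of genes). COL4A5 had 169 CPM in the knockout library and 184 CPM in the wild type library there, and COL28A1 226 and 116 CPM (log2 ratio 0.96, 0.73 to 1.18). COL28A1 was higher in the knockout library in this class as in cluster 14. Bowman gland-like nuclei had 13 such members, 4 higher and 9 lower, with 1 past the log2 ratio of 1 in each direction (5.98% of genes each way). COL1A1 had 103 CPM in the knockout library and 42.9 CPM in the wild type library there, and COL4A5 128 and 218 CPM. The COL1A1 levels were near its background in mature neuron-like nuclei, 112 and 33.6 CPM. Neuronal precursor-like nuclei had 13 as well, 7 higher and 6 lower, with 2 at least 1 log2 unit higher (3.94% of genes) and 3 that much lower (3.65% of genes). Respiratory ciliated-like nuclei had COL4A5 at 441 CPM in the knockout and 339 CPM in the wild type library, from 463 and 32 nuclei, and microvillar or ionocyte-like nuclei had COL28A1 at 186 and 39.3 CPM, 63 UMIs against 12 from 66 and 53 nuclei. Of the 63, 20 came from 1 nucleus.

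**Figure D5:**
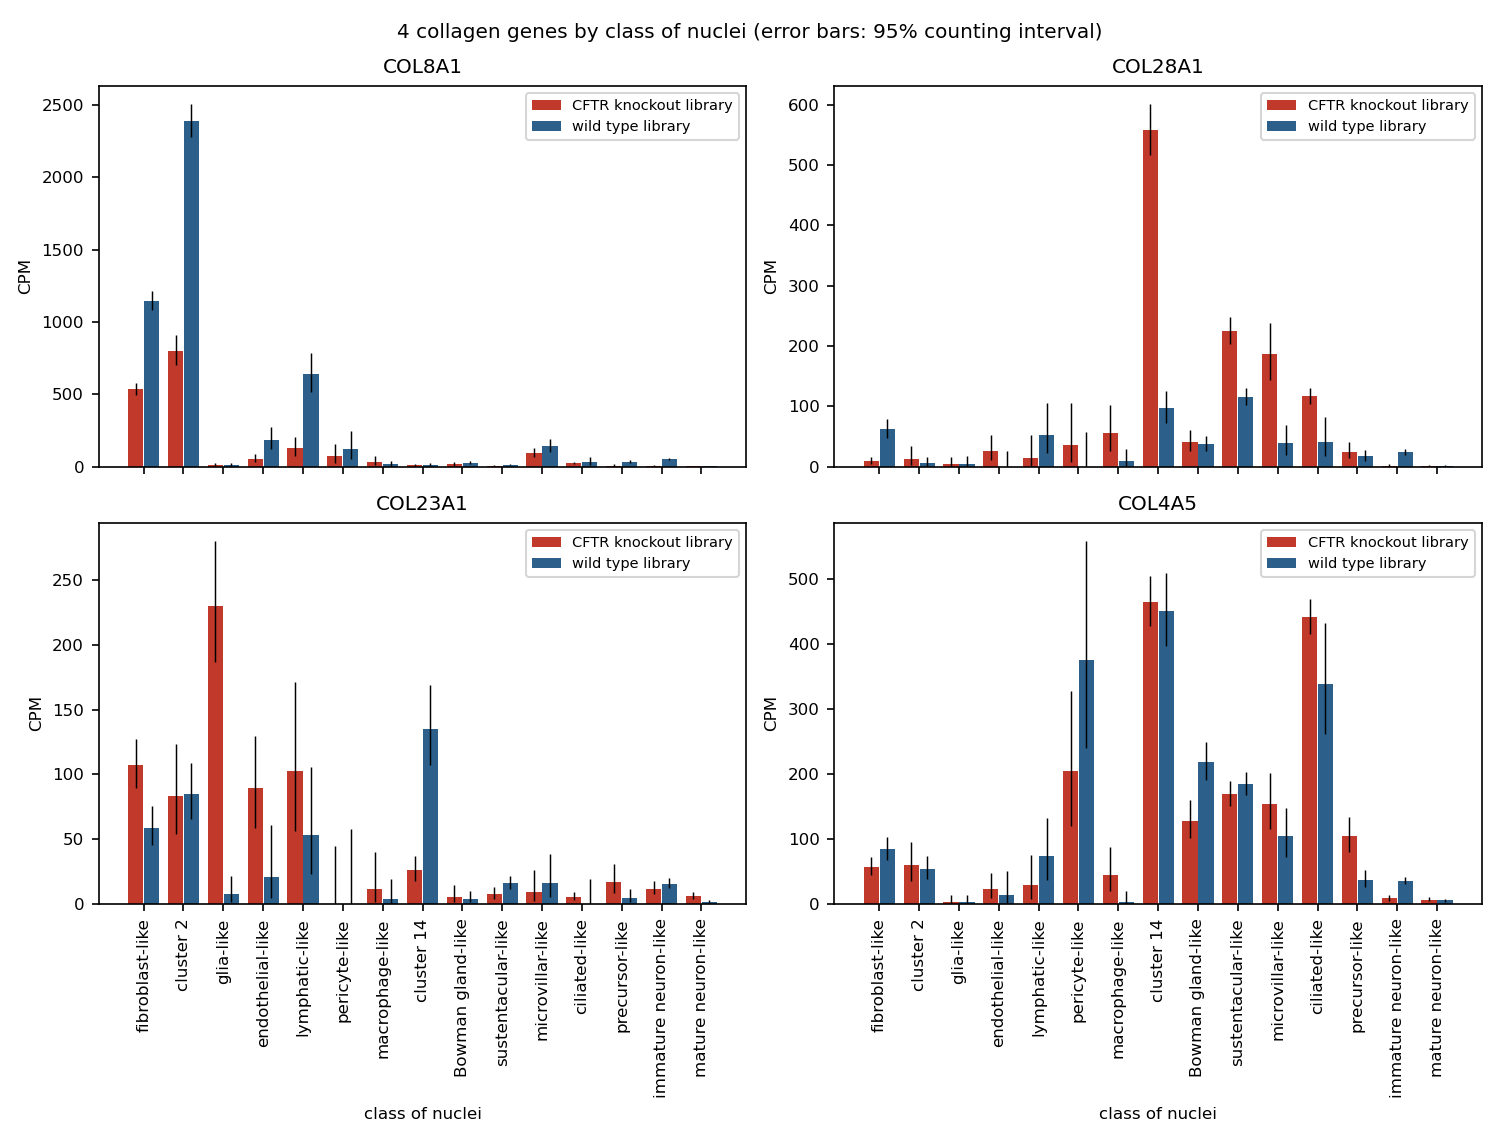
CPM of COL8A1, COL28A1, COL23A1 and COL4A5 in 15 classes of nuclei, knockout bars left of wild type bars, with 95% counting intervals. COL8A1 is lower in the knockout library in fibroblast-like nuclei and cluster 2; COL28A1 is 557 against 96.7 CPM in cluster 14 and 9.06 against 62.5 CPM in fibroblast-like nuclei; COL23A1 is 230 against 7.35 CPM in glia-like nuclei and 26.1 against 135 CPM in cluster 14.

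Glia-like nuclei, with markers of ensheathing or Schwann glia, were the highest class of COL5A3, COL15A1 and COL16A1 in both libraries. COL5A3, a minor type V chain known from rat Schwann cells, had 319 CPM in the knockout library and 309 CPM in the wild type library (log2 ratio 0.05, -0.31 to 0.41), and no other class with at least 30 nuclei in a library exceeded 28.8 CPM. COL15A1, a basement membrane collagen of nerve and vessels, had 418 and 458 CPM, and its level in wild type endothelial-like nuclei, 312 CPM, did not differ from the wild type glia-like level beyond counting error. COL16A1 had 98.6 and 132 CPM, and in the knockout library it was not above cluster 2 beyond counting error. The libraries were not distinguishable in any of these at this depth, and COL14A1, at 552 and 642 CPM, was not either.

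COL23A1 was the exception in the glia-like class. It had 98 UMIs in 179 knockout nuclei and 3 UMIs in 156 wild type nuclei, which is 230 and 7.35 CPM, a log2 ratio of 4.97 (3.38 to 7.27). A COL23A1 UMI was found after thinning in 18.5% (12.9% to 25.2%) of 168 knockout nuclei and 1.38% (0.167% to 4.89%) of 145 wild type nuclei, against 25.7% and 1.28% unthinned. Median depths were 2060 and 2448 UMIs. In mature neuron-like nuclei COL23A1 had 5.85 and 1.05 CPM. COL1A1, at 164 and 61.3 CPM, was the other member at least 1 log2 unit higher (7.8% of genes), and its background in mature neuron-like nuclei was higher by 1.73 log2 units. COL12A1 was the member that much lower (4.5% of genes), with 58.7 CPM in the knockout and 176 CPM in the wild type library; its log2 ratio of -1.59 was -0.62 with no doublet removal.

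Vascular nuclei carried network and multiplexin collagens. In 123 knockout and 52 wild type endothelial-like nuclei, COL4A2 had 640 CPM in the knockout library and 902 CPM in the wild type library, and COL18A1 261 and 492 CPM. COL14A1 was highest in this class in both libraries, with 821 and 763 CPM, and it was also high in macrophage-like nuclei, with 729 and 449 CPM from 94 and 78 nuclei. The share of nuclei with COL14A1 differed between classes: a UMI of it was found after thinning in 36.4% (25.7% to 48.1%) of 77 knockout and 32.9% (22.1% to 45.1%) of 70 wild type macrophage-like nuclei, against 4.23% and 3.79% of mature neuron-like nuclei. Unthinned, these shares were 47.9% and 50% in macrophage-like nuclei and 11.5% and 14.8% in mature neuron-like nuclei. Pericyte or smooth muscle-like nuclei, 55 knockout and 33 wild type, had COL4A2 at 493 and 750 CPM and COL4A5 at 205 and 375 CPM.

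Mature neuron-like nuclei came mostly from different clusters in each library, cluster 7 (853 knockout and 168 wild type nuclei) and cluster 5 (83 and 726). Among them 16 members had at least 20 UMIs, and 12 were higher and 4 lower in the knockout library. Past the log2 ratio of 1 were 6 higher members (5.39% of genes) and none lower (3.06% of genes). COL1A1 had 112 CPM in the knockout library and 33.6 CPM in the wild type library, and COL1A2 134 and 40.2 CPM. Their log2 ratios were 1.73 (1.44 to 2.04) and 1.74 (1.46 to 2.02), and UMIs of COL1A1 per UMI of COL1A2 were 0.835 and 0.837. A COL1A2 UMI was found after thinning in 13.3% (11.2% to 15.7%) of 899 knockout and 4.25% (3.01% to 5.81%) of 870 wild type nuclei, compared with 45.6% and 59.3% of fibroblast-like nuclei. Unthinned, these shares were 29.3% and 13.6% in mature neuron-like nuclei and 60.5% and 73.7% in fibroblast-like nuclei. Neurons are not expected to make type I collagen, and this level was taken as background. The source of these UMIs was not tested. The level was higher in the knockout library, and its part in the other classes' type I values was not tested.

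COL17A1 was spread over many classes. Its highest class was lymphatic endothelial-like in the knockout library (95.01 CPM, not above the next class beyond counting error) and cluster 14 in the wild type library. It had 67.5 CPM in the knockout library and 49.1 CPM in the wild type library in mature neuron-like nuclei, above the 26.4 and 36.8 CPM of fibroblast-like nuclei. Its thinned share there was 7.68% (6.02% to 9.61%) and 4.83% (3.50% to 6.47%), against 7.31% (5.02% to 10.2%) and 11.0% (6.44% to 17.3%) in cluster 14. The unthinned shares were 17.3% and 16.2% in mature neuron-like nuclei and 18.3% and 40.7% in cluster 14.

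Immature olfactory neuron-like nuclei had 23 members with at least 20 UMIs, of which 7 were higher and 16 lower in the knockout library. None was at least 1 log2 unit higher (2.78% of genes), and 7 were that much lower (8.25% of genes). The UMIs behind the lowest ratios lay in 1 cluster of 1 library. In the wild type nuclei of cluster 20, 282 in number, COL8A1 had 235 UMIs, COL11A1 261, COL12A1 193 and COL28A1 111, whereas its 81 knockout nuclei had 0, 3, 3 and 0. In cluster 6, the other immature cluster, COL8A1 had 7.53 CPM in the knockout library and 5.81 CPM in the wild type library, and COL11A1 10.7 and 7.06 CPM. Of those 282 wild type nuclei, 25 had a UMI of at least 3 of these 4 collagens; their median was 13821 UMIs, against 4711 in the remaining 257, and their median doublet score 0.126 against 0.0346. Fibroblast markers summed to 134 CPM in the knockout and 212 CPM in the wild type nuclei of cluster 20, and to 145 and 88.02 CPM in cluster 6. Without cluster 20 the log2 ratio of COL8A1 was 0.37 in place of -3.08, that of COL11A1 0.60 in place of -2.50 and that of COL12A1 0.35 in place of -2.58. The part of mixed droplets was not tested.

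The 8 rows named from identifiers are given apart from the 30 members. COL6A1, the partner of COL6A2, was highest in fibroblast-like nuclei, with 150 CPM in the knockout library (149.94 unrounded) and 314 CPM in the wild type library (log2 ratio -1.07, -1.34 to -0.80). COL21A1, a fibril-associated collagen of vessels, had 50.3 and 112 CPM there and was highest in endothelial-like nuclei, with 95.6 and 194 CPM. COL9A1 and COL9A3, which decorate cartilage fibrils, had 7 and 2 UMIs in the knockout nuclei of cluster 2 against 97 and 48 in the wild type ones. COL9A1 reached 453 CPM in the knockout cartilage-like nuclei. COL25A1, a transmembrane collagen known in mice from muscle innervation, had 171 CPM in the knockout library and 78.3 CPM in the wild type library in sustentacular-like nuclei (log2 ratio 1.13, 0.86 to 1.40), and 136 and 145 CPM in neuronal precursor-like nuclei. COL4A3, COL4A6 and COL24A1 had 70, 62 and 188 UMIs in all.

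Some genes shared their pattern over classes. Over 15 classes, each with 30 or more nuclei per library, the level of COL1A1 ranked most like that of COL1A2, with a Spearman rho of 0.96 in the knockout library and 0.91 in the wild type library. COL1A2 with COL3A1 had 0.90 and 0.95, and COL1A2 with COL12A1 0.88 and 0.93. These classes share a library and any free RNA in it, and the values are a description. For the 35 collagen rows with at least 100 UMIs, the rank order of the classes in the knockout library and that in the wild type library had a median rho of 0.62, from 0.23 to 0.94.

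The genes that process or bind collagen were counted in the same way, beside 6.86% of all genes at least 1 log2 unit higher and 3.02% that much lower. Of 19 measured genes for chain modification and folding, 5 were higher and 14 lower in the knockout library, with none past a log2 ratio of 1 and a median of -0.05. Of 13 genes for trimming and crosslinking, 5 were higher and 8 lower, with none past it and a median of -0.13. Of 9 measured receptors, 3 were higher and 6 lower, with 1 past it (GP6, 7 and 19 UMIs) and a median of -0.14. The highest ratios among genes with at least 100 UMIs were those of COLGALT2, which adds sugars to collagen lysines (17.8 CPM in the knockout against 9.69 CPM in the wild type library, log2 ratio 0.88), TLL1, a procollagen protease (19.8 against 12.6 CPM, 0.65), and DDR2, a receptor kinase for fibrillar collagen (81.4 against 54.8 CPM, 0.57). The lowest were those of ITGA11, a collagen-binding integrin chain of fibroblasts (7.54 CPM in the knockout against 12.8 CPM in the wild type library, -0.77), P4HA3, a prolyl hydroxylase chain (37.7 against 62.3 CPM, -0.73), and SERPINH1, the collagen chaperone (10.8 against 16.5 CPM, -0.61). SERPINH1 had 28.8 CPM in knockout fibroblast-like nuclei against 63.4 CPM in wild type ones, and 43.3 against 114 CPM in cluster 2.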

How the data were processed

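Single-nucleus RNA was measured in 1 CFTR knockout and 1 wild type library of pig olfactory mucosa. The authors deposited raw UMI counts, 1 table for each piglet with genes in rows and nuclei in columns. The submitters' processing notes name Cell Ranger, Seurat 4.0 and R 4.0.2. Aligner, genome build and strand setting: not given in the sources used here. The tables held 6054 knockout barcodes with 16623086 UMIs and 4715 wild type barcodes with 18731495 UMIs. Of 25880 rows, 8256 carried only an identifier, of which 1029 were given a symbol. Members and gene lists were chosen with earlier results of these data known.

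A minimum of 200 detected genes removed 1 nucleus, from the wild type library. Scrublet failed at its own threshold, where it called 1 nucleus per library, and the highest scores were instead removed at 0.8% per 1000 nuclei, 293 knockout and 178 wild type nuclei. UMIs were scaled to 10000 per nucleus. The 2000 most variable genes, chosen without collagens, CFTR and mitochondrial genes, gave 30 principal components and 15 neighbours for Leiden clustering at resolution 1 (scanpy 1.11.5, python-igraph 0.11.9). The alternatives changed scaling, weighting, minimums, clustering and doublet removal. A cluster was named when at least 3 markers of 1 of 25 types, none a collagen, were raised. The median depth had to be at least 0.333 of that of its library. CPM are summed UMIs over all UMIs of the class, with exact Poisson intervals. Ratios are knockout over wild type with exact conditional binomial intervals, and shares have Clopper-Pearson intervals. Where a gene had no UMI, the floor was 3 counts. Thinning drew 1000 UMIs from each nucleus with that many. Ratios within classes needed 100 nuclei in each library and 20 UMIs of the gene, which 9 classes met. All members may be named, and the 21 with at least 300 UMIs are given by class; of the pathway lists the 3 highest and 3 lowest ratios are named. Feature rows that carry a collagen name only through an identifier are given apart. TMM factors came from edgeR 4.0.16. The ratio computation and the cluster naming were tested on simulated data. No p-value was computed. Sequences were not used here.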

Additional observations from a re-analysis of the deposited data

Results flagged for a closer look

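For 6 members the ratio between the libraries was past 1 log2 unit upwards in 1 or more classes and downwards in others, with the counting interval of each such ratio apart from 0. The differences between classes were not tested, since there is 1 library per genotype. The 6 members are 24% of the 25 measured in at least 2 of the compared classes, beside 3.56% of 12826 genes measured so, which were not matched to the members in UMIs. Values are log2 ratios, knockout over wild type.

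COL23A1 had 4.97 in glia-like nuclei and 2.48 in mature neuron-like nuclei (17 against 4 UMIs), but -2.37 in cluster 14 and -1.09 in sustentacular-like nuclei. COL28A1 had 2.53 in cluster 14, but -2.79 in fibroblast-like nuclei and -3.97 in immature neuron-like nuclei. The fibroblast-like value of COL28A1 rested on the 25 wild type nuclei of cluster 22. Behind its immature neuron-like value, 111 wild type UMIs lay in cluster 20 and 5 in cluster 6. COL1A1 had 1.73 in mature neuron-like nuclei, 1.42 in glia-like nuclei, 1.28 in cluster 14 and 1.26 in Bowman gland-like nuclei, but -1.08 in cluster 2. Its level in mature neuron-like nuclei, 112 CPM in the knockout and 33.6 CPM in the wild type library, was taken as background. The part of that background in the other upward COL1A1 values was not tested. COL4A5 had 1.49 in neuronal precursor-like nuclei and -2.09 in immature neuron-like nuclei; the second was 0.14 when the libraries were clustered apart, and 143 of its 168 wild type UMIs lay in cluster 20.

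COL11A1 had 1.03 in mature neuron-like nuclei, but -1.32 in Bowman gland-like nuclei, -1.36 in precursor-like nuclei, -2.18 in cluster 14 and -2.50 in immature neuron-like nuclei. The immature neuron-like value of COL11A1 was 0.60 without cluster 20. COL18A1 had 1.13 in mature neuron-like nuclei, but -1.94 in precursor-like nuclei, -1.98 in cluster 14 and -3.06 in cluster 2. For both genes the only such upward value was in mature neuron-like nuclei, whose collagen level was taken as background.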

How the results depend on the processing

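No paired analysis was possible because each genotype has 1 library, and no library could be left out for the same reason. The number of members lower over all nuclei (19 of 30) ranged from 16 to 20 under the alternatives run on all 30 members, and was 23 with the 8 identifier rows added. TMM and median-of-ratios factors shifted every log2 ratio by -0.09 and -0.11. All 6 members past 1 log2 unit over all nuclei kept their direction under these alternatives, and 10 of the other members changed sign under at least 1 of them. For COL6A6, 37 of the 61 wild type UMIs lay in cluster 22 and 15 in cluster 20. Within classes, 49 ratios past 1 log2 unit were recomputed and 4 changed sign under at least 1 alternative, all in immature neuron-like nuclei. COL11A1 was 0.22 at Leiden resolution 2, 0.46 with no doublet removal and 0.60 without cluster 20. COL12A1 was 0.35 and COL8A1 0.37 without cluster 20, and clustering the libraries apart gave 0.14 for COL4A5. Cluster 20 held most wild type UMIs of these genes in the class, and otherwise the cause was not tested. Some ratios could not be seen to change sign, since too few UMIs were left for a ratio. Without cluster 22 these were COL28A1 and COL6A6 in fibroblast-like nuclei, where COL6A6 had 2 knockout UMIs and 1 wild type UMI. Without cluster 20 COL28A1 had 3 knockout and 5 wild type UMIs in immature neuron-like nuclei.

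The share of collagen UMIs in fibroblast-like nuclei and cluster 2 (36.9% for knockout nuclei, 60.3% for wild type nuclei) was 37.8% and 64.4% with collagens among the variable genes, 40.9% and 51.9% when libraries were clustered apart, 35.4% and 58.1% with no doublet removal, 39.0% and 61.0% with at least 500 detected genes, and 39.9% and 60.9% without the shallow clusters 1 and 4. At resolution 0.5 the knockout share was 40.5%. Leaving out the shallow clusters, cluster 20, cluster 22 or the top nucleus, and counting the identifier rows, were chosen after seeing the data. Depth limits classes with few nuclei in the wild type library, such as the ciliated-like and cartilage-like ones.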
